A study of Mus musculus with 14 samples.

Results

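The TNF superfamily genes named by number, Tnfsf for the ligands and Tnfrsf for the receptors, were followed on Affymetrix Mouse Gene 1.0 ST arrays of activated mouse CD4+ T cells. A gene was a member if a probe set carried its symbol alone and that symbol began with Tnfsf or Tnfrsf and a digit. This gave 29 members of 19752 genes with a probe set of their own, 9 ligands and 20 receptors, each with 1 such probe set. Of these, 22 (5 ligands and 17 receptors) lay above the 40th percentile of mean log2 intensity over all single-symbol probe sets (6.29), as did 11761 genes in all, and these 22 were tested.

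All cells were CD4+ T cells taken by negative selection from the spleens of male C57BL/6 mice aged 6 weeks. They were activated for 48 h with beads against CD3 and CD28 and then cultured with interferon alpha at 100 U/ml and 1 of 7 JAK inhibitors at its IC80, the dose that inhibits by 80%, for 8 h or 2 h. The inhibitors are named by the target on their label and the code in the sample title (IFN for the interferon, then digits): JAK1 (IFN.3404), JAK1/2 (IFN.6221), PAN (IFN.6222), TYK2 (IFN.2485), JAK2 (IFN.3885), JAK3 (IFN.6226) and JAK3 (IFN.6228). There was 1 array per inhibitor and time, 14 in all, so no p-value below measures the spread between repeated cultures.
The 4 inhibitors that name JAK1 or TYK2 (PAN is taken to include JAK1) were set against the 3 that name JAK2 or JAK3 only. The p-value of that comparison rests on the spread between inhibitors. The p-value of 8 h against 2 h, and of 1 inhibitor against the other 6, rests on how unevenly the inhibitors changed with time, plus noise. Every culture received interferon and an inhibitor, and arrays without inhibitor were not analysed here, so each value is a difference between times or between inhibitors. Time with interferon, time with the inhibitor and time since activation ran together and cannot be told apart.

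Ligands of the TNF superfamily are mostly trimeric membrane proteins that bind receptors on neighbouring cells. Receptors with a cytoplasmic death domain can start apoptosis through FADD and caspase-8, and some of them, such as TNFR1, also turn on NF-kB. Most receptors without one, decoy receptors aside, recruit TRAF adaptors and turn on NF-kB. In activated CD4+ T cells, OX40, 4-1BB, GITR, CD30 and TNFR2 are costimulatory receptors of the second kind, and TRAIL is a ligand known as an interferon-induced gene. JAK1 and TYK2 are the kinases of the interferon alpha receptor and activate the factors that bind the interferon-stimulated response element.

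The promoters of 4 members are shown, chosen by their values in these data. At 2 h, every value of Tnfsf10 and of Tnfrsf14 under the inhibitors naming JAK1 or TYK2 lay below those under the other 3. Classes without overlap, in either direction, occurred in 2 of 22 members and 5.03% of all genes, and the difference of Tnfrsf14 did not pass the test. Tnfrsf1a and Tnfrsf1b, the receptors for TNF, moved in opposite directions with time. Each promoter runs 5′ to 3′ on the gene's strand from 250 bases before to 50 bases after the start site (RefSeq, GRCm38.p6). Capitals mark letters that match the interferon-stimulated response element (ISRE, here 2 copies of GAAA with 2 free bases between them), the IRF core (AANNGAAA, which can lie within an ISRE) or the STAT motif known as GAS (TTCNNNGAA), on either strand.
Tnfsf10, chr3:27316827-27317126, plus strand: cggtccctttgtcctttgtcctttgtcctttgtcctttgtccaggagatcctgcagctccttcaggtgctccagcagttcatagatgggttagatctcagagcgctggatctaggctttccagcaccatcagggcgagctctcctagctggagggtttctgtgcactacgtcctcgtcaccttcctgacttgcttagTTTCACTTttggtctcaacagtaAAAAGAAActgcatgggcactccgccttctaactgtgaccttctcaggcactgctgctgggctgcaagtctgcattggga
Tnfrsf14, chr4:154928028-154928327, minus strand: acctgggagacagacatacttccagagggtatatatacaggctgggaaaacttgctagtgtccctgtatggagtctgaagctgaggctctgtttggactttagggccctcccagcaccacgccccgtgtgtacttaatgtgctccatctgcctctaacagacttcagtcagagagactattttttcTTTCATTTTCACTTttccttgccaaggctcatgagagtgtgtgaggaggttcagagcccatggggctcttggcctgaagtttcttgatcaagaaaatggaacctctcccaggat
Tnfrsf1a, chr6:125349473-125349772, plus strand: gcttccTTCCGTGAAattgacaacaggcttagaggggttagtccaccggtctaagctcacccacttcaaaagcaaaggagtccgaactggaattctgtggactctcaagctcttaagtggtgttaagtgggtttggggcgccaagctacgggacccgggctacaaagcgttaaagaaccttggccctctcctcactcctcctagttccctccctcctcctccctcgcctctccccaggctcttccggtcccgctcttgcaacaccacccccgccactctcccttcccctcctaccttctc
Tnfrsf1b, chr4:145246821-145247120, minus strand: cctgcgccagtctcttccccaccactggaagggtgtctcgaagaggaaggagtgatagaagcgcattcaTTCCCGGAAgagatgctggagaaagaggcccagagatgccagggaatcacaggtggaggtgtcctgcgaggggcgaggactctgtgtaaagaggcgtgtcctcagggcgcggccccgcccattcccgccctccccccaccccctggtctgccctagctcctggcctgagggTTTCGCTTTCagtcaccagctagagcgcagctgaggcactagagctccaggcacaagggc
In this window Tnfsf10 held 2 IRF cores and no ISRE, Tnfrsf14 an ISRE that overlaps 2 IRF cores, Tnfrsf1a a GAS match, and Tnfrsf1b an ISRE (with an IRF core inside it) and a GAS match. Promoter sequence was at hand for 19 of the 22 tested members. Of these 19, 3 held an ISRE (Tnfrsf14, Tnfrsf1b and Tnfsf13b), 6 a GAS match and 8 an IRF core, and none held the NF-kB motif searched for (GGGA and TTCC with 2 free bases between them). A member with several promoters was counted once if any of them matched. The GAS matches of Tnfrsf19, Tnfrsf25 and Tnfrsf9 and the ISRE of Tnfsf13b lay in a single one of their promoters. Among 32851 promoters of that length, 3.44% held the ISRE, 8.3% GAS, 23.9% the IRF core and 1.47% the NF-kB motif. These shares are per promoter and not per gene, so the counts of members cannot be set directly against them. A match describes the letters and is not a binding site, and where there is no match only this window is described.

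The 4 CD4 T cell markers with a probe set all lay above the 40th percentile and had a mean log2 intensity of 12.23 to 12.32 at 8 h and 11.89 to 12.06 at 2 h. Both CD8 markers and all 4 B cell markers with a probe set (Ms4a1, Cd79a, Cd79b and Pax5) also lay above the 40th percentile, whereas 0 of 3 NK cell and 0 of 3 granulocyte markers, 1 of 4 dendritic cell and 2 of 5 macrophage markers did. Under the JAK1 inhibitor, the 8 h array was set apart from the others of its time, with a mean Pearson r of 0.978 against 0.988 to 0.992 for the other 6. The main results on time, on the classes at 8 h and on the JAK1 inhibitor are given below with and without it. Where markers of another cell type move with a member, their values stand beside it. In RNA of a whole culture, fewer cells of a type and less RNA per cell cannot be told apart.

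The 7 members at or below the percentile were the ligands Tnfsf4 (6.24), Tnfsf9 (6.16), Tnfsf15 (6.22) and Tnfsf18 (4.62) and the receptors Tnfrsf11a (6.25), Tnfrsf11b (6.10) and Tnfrsf17 (5.68), given as mean log2 intensity over the 14 arrays. Tnfsf4, Tnfsf9 and Tnfsf18 encode the ligands of OX40, 4-1BB and GITR, Tnfrsf11a and Tnfrsf11b encode RANK and osteoprotegerin, and Tnfrsf17 encodes the plasma cell receptor BCMA. Nearest to the percentile were Tnfsf13b and Tnfrsf19 just inside it, by 0.09 and 0.11, and Tnfrsf11a, Tnfsf4 and Tnfsf15 just outside, by -0.05, -0.05 and -0.07. Tnfsf12 and Tnfsf13 had no probe set of their own and were not used here. The plot of levels by array shows the other 22.

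**Figure D1:**
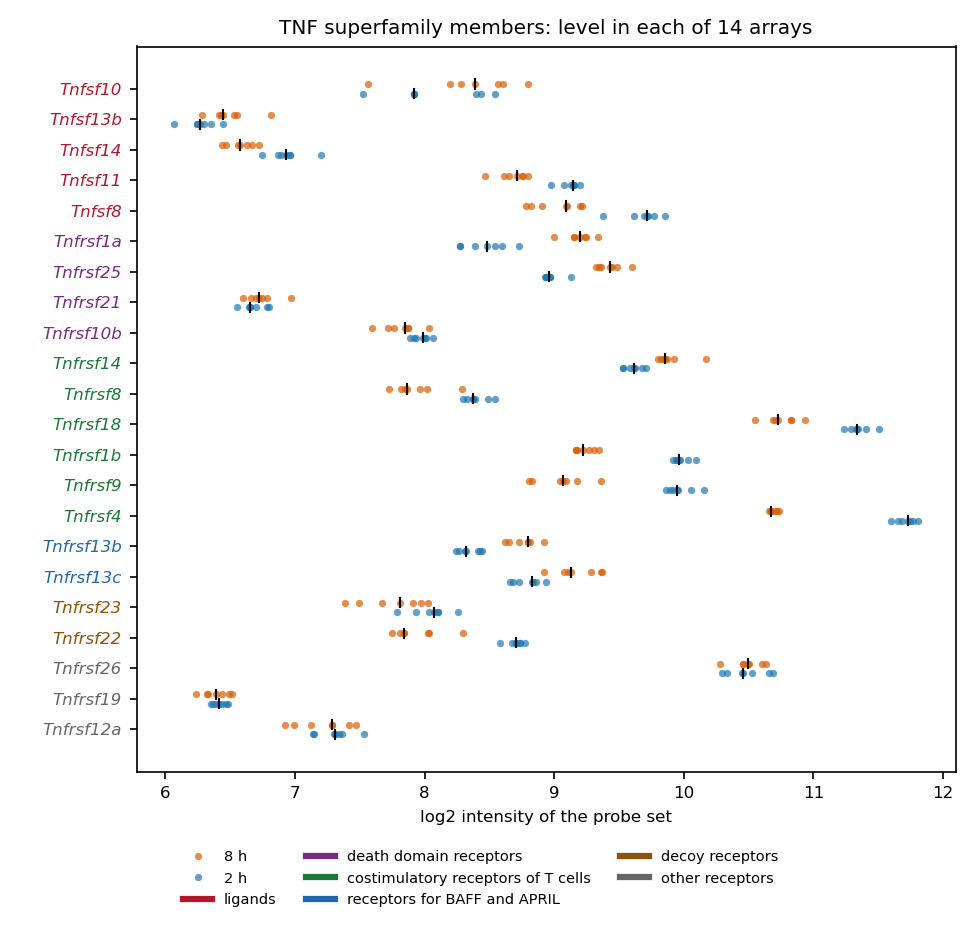
Log2 intensity of the 22 tested members (rows, coloured by role) in each of 14 arrays, with 8 h above 2 h in each row; each point is 1 inhibitor and the black tick is the median of 7. The 8 h and 2 h points of Tnfrsf4, Tnfrsf9, Tnfrsf18 and Tnfrsf1b do not overlap and lie lower at 8 h, while those of Tnfrsf1a and Tnfrsf25 lie higher at 8 h; levels of different probe sets cannot be compared.

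Most tested members differed between the times. Between 8 h and 2 h, 18 of the 22 members changed, 7 higher and 11 lower (limma with the inhibitor as a block, Benjamini-Hochberg over all genes), which is 81.8% of the members where 49.6% of all genes passed. Of all genes, 21.4% were higher and 28.2% lower. Without adjustment the same 18 members and 55.3% of all genes had a p under 0.05. The median size of the change, sign left aside, was 0.40 on the log2 scale among the members and 0.17 among all genes, and the median signed change was -0.12 among the members and 0.02 among all genes. In 16 members the change had the same sign under all 7 inhibitors, against 38.5% of all genes. In 13 members the 8 h and 2 h ranges did not overlap (9 lower and 4 higher at 8 h), against 24.6% of all genes.

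Of the 6 receptors listed here as costimulatory, 5 fell. All 6 tested members of this list changed, 5 lower and Tnfrsf14 higher, with a median of -0.67. The list leaves out Tnfrsf25 and Cd27, also known as costimulatory in T cells, which rose and are given with other lists below. Tnfrsf4, which encodes OX40, had a log2 intensity of 10.65 to 10.73 at 8 h (median 10.67) and 11.60 to 11.81 at 2 h (median 11.73). The 2 ranges lie far apart, and the inhibitors gave nearly one value at 8 h. Its change was -1.02 (SE 0.04, adjusted p = 1.97e-10), a 2.03-fold lower intensity, and ran from -1.09 under the JAK2 inhibitor to -0.94 under the JAK1 inhibitor.
Tnfrsf9, which encodes 4-1BB, had 8.81 to 9.36 at 8 h (median 9.06) and 9.86 to 10.15 at 2 h (median 9.95), without overlap. The change was -0.91 (SE 0.06, adjusted p = 2.39e-08), and it was smallest under the JAK2 inhibitor (-0.69). Tnfrsf1b, which encodes TNFR2, had 9.16 to 9.34 at 8 h (median 9.22) and 9.91 to 10.09 at 2 h (median 9.96), and changed by -0.74 (SE 0.05, adjusted p = 2.88e-08). Its 7 changes were among the more even ones, between -0.82 and -0.64.
Tnfrsf18, which encodes GITR, had 10.55 to 10.94 at 8 h (median 10.73) and 11.23 to 11.50 at 2 h (median 11.33). It changed by -0.59 (SE 0.04, adjusted p = 7.18e-08), with the lowest 8 h value and the largest drop, -0.78, under the JAK1 inhibitor. Tnfrsf8, which encodes CD30, had 7.73 to 8.29 at 8 h (median 7.86) and 8.29 to 8.54 at 2 h (median 8.37), and changed by -0.47 (SE 0.07, adjusted p = 4.22e-05). Its 8 h and 2 h ranges only just miss each other, and the JAK2 inhibitor had the highest 8 h level and the smallest change (-0.25).
Tnfrsf14 encodes HVEM, a receptor that quiescent T cells carry already and that pairs with LIGHT and BTLA. It had 9.80 to 10.17 at 8 h (median 9.86) and 9.53 to 9.71 at 2 h (median 9.61), and rose by 0.29 (SE 0.06, adjusted p = 0.00108). The rise was 0.64 under the JAK1 inhibitor and 0.15 to 0.29 under the other 6. Its highest value lies on the array that stood apart, and without that array the rise was 0.23. Without it, 17 of the 18 members changed with time kept their call, all but Tnfrsf10b. OX40, 4-1BB and GITR are known to be high on regulatory T cells. The 4 regulatory T cell markers did not move together. Il2ra, which activated T cells carry too, fell by 0.81 on the log2 scale (SE 0.05, limma adjusted p = 6.87e-09), whereas Foxp3 rose by 0.23 (SE 0.06, adjusted p = 0.00612) and Ikzf2 by 0.25 (SE 0.06, adjusted p = 0.00312). Ctla4 had a difference of -0.01 (adjusted p = 0.870). The mean of the 4 was 9.98 to 10.26 at 8 h and 10.10 to 10.23 at 2 h, and their part in the change of the costimulatory receptors was not tested.

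Among the 4 death domain receptors, Tnfrsf1a and Tnfrsf25 rose, Tnfrsf10b fell and Tnfrsf21 did not pass the test. Tnfrsf1a encodes TNFR1, the receptor through which soluble TNF can start both NF-kB signalling and apoptosis. It had 8.999 to 9.34 at 8 h (median 9.20) and 8.27 to 8.73 at 2 h (median 8.48), without overlap, and rose by 0.72 (SE 0.08, adjusted p = 3.75e-06), 1.65-fold. The rise was uneven: 1.07 under the JAK2 inhibitor, which had one of the lowest levels at 2 h and the highest at 8 h, and 0.41 under the JAK1 inhibitor. The genes of the receptors for TNF thus changed in opposite directions under every inhibitor, Tnfrsf1a upward and Tnfrsf1b downward.
Tnfrsf25 encodes DR3, a T cell receptor for TL1A. It had 9.32 to 9.60 at 8 h (median 9.43) and 8.93 to 9.13 at 2 h (median 8.96), and rose by 0.45 (SE 0.06, adjusted p = 1.39e-05). No 8 h value reached down to the 2 h range. The gene of its ligand, Tnfsf15, was below the percentile.
Tnfrsf10b encodes the TRAIL receptor of the mouse. It had 7.59 to 8.03 at 8 h (median 7.85) and 7.89 to 8.06 at 2 h (median 7.99), ranges that overlap. The change was -0.16 (SE 0.06, adjusted p = 0.0446) with 6 of 7 inhibitors lower. The call was lost in 8 of 18 alternatives: with any 1 inhibitor but the JAK2 inhibitor left out (differences of -0.18 to -0.13, adjusted p up to 0.145), without the JAK1 inhibitor's 8 h array alone (-0.15) and without a filter. Tnfrsf21, which encodes DR6, had a difference of 0.06 (SE 0.06, adjusted p = 0.486).

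All 5 tested ligands changed, 3 lower and 2 higher, with a median of -0.36. Tnfsf8, the CD30 ligand, had 8.78 to 9.21 at 8 h (median 9.09) and 9.38 to 9.85 at 2 h (median 9.72), and changed by -0.66 (SE 0.06, adjusted p = 3.26e-07). The ranges do not overlap, and the changes ran from -0.83 under the TYK2 inhibitor to -0.51 under JAK3 inhibitor IFN.6226. Tnfsf8 and its receptor Tnfrsf8 were thus lower together at 8 h.
Tnfsf11, which encodes RANKL, the ligand that drives osteoclast formation and supports dendritic cells, had 8.47 to 8.79 at 8 h (median 8.71) and 8.98 to 9.20 at 2 h (median 9.15). It changed by -0.44 (SE 0.06, adjusted p = 3.75e-05), without overlap and with the smallest drop, -0.22, under the TYK2 inhibitor. Tnfsf14, which encodes LIGHT, had 6.43 to 6.72 at 8 h (median 6.58) and 6.74 to 7.20 at 2 h (median 6.93). It changed by -0.36 (SE 0.07, adjusted p = 5.67e-04), opposite in sign to its receptor gene Tnfrsf14.
Tnfsf10, which encodes TRAIL, had 7.56 to 8.80 at 8 h (median 8.39) and 7.53 to 8.54 at 2 h (median 7.92). The ranges overlap widely, but within each inhibitor the 8 h value was the higher one. Its rise was 0.25 (SE 0.07, adjusted p = 0.00615), from 0.04 under the JAK1 inhibitor to 0.47 under the PAN inhibitor. Without the inhibitor as a block the adjusted p of Tnfsf10 was 0.242.
Tnfsf13b, which encodes the B cell survival factor BAFF, had 6.28 to 6.81 at 8 h (median 6.45) and 6.06 to 6.44 at 2 h (median 6.26), and rose by 0.22 (SE 0.07, adjusted p = 0.0219). It lay nearest to the percentile, and its call was lost in 5 of 17 alternatives: without the JAK1/2 (0.17), the PAN (0.20) or JAK3 inhibitor IFN.6228 (0.21), after quantile normalization (0.17) and after cyclic loess (0.16).

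**Figure D2:**
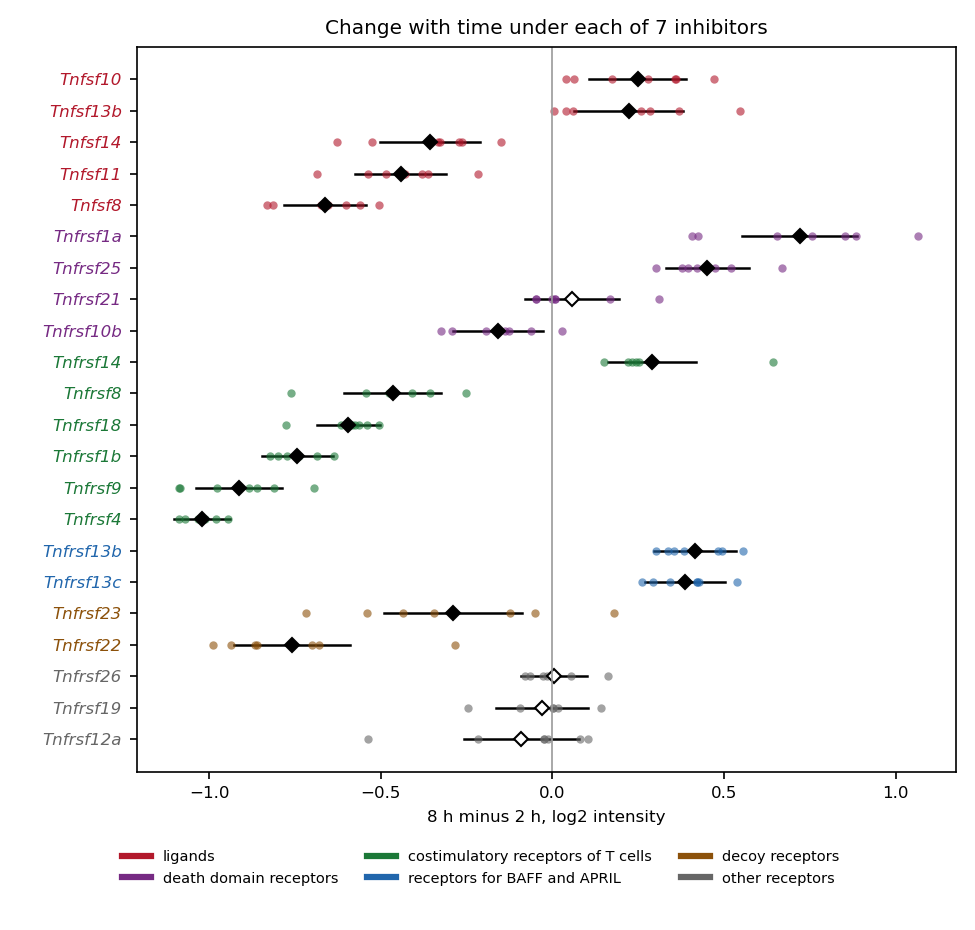
Difference in log2 intensity, 8 h minus 2 h, for the 22 tested members; coloured points are the 7 inhibitors, diamonds the fitted mean with its 95% interval, filled where the adjusted p passed and open where it did not. The receptors listed as costimulatory sit between -1.02 (Tnfrsf4) and -0.47 (Tnfrsf8) except Tnfrsf14 at 0.29, and the points of Tnfrsf4 lie closest together.

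Both tested receptors for BAFF and APRIL rose. Tnfrsf13b, which encodes TACI, had 8.62 to 8.92 at 8 h (median 8.80) and 8.24 to 8.44 at 2 h (median 8.32), without overlap, and rose by 0.41 (SE 0.06, adjusted p = 2.90e-05). Tnfrsf13c, which encodes the BAFF receptor, had 8.92 to 9.37 at 8 h (median 9.13) and 8.66 to 8.94 at 2 h (median 8.83), and rose by 0.39 (SE 0.05, adjusted p = 4.12e-05) in all 7 inhibitors. These receptors are known mainly from B cells. The mean of the 4 B cell markers was 8.54 to 8.79 at 8 h and 8.11 to 8.31 at 2 h, without overlap, and 4 of 4 lay above the percentile. The mean of the CD8 markers moved the same way, with 7.94 to 8.16 at 8 h and 7.59 to 7.82 at 2 h. So did that of the CD4 T cell markers, with 12.23 to 12.32 at 8 h and 11.89 to 12.06 at 2 h. Of the CD8 markers, Cd8b1 rose by 0.42 (limma adjusted p = 2.45e-05), whereas Cd8a (0.14, adjusted p = 0.129) did not pass. The granulocyte markers, all below the percentile, had 5.31 to 5.58 at 8 h and 5.03 to 5.30 at 2 h. For regulatory T cell, macrophage, dendritic cell and NK cell markers the ranges of the list means overlapped. Among the tested macrophage markers, Cd68 differed by -0.22 (limma adjusted p = 0.0192), and Lyz2 (-0.25, adjusted p = 0.159) did not pass. The part of these cell types in the rise of Tnfrsf13b and Tnfrsf13c was not tested.

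Both mouse decoy receptors for TRAIL fell. Tnfrsf22 had 7.75 to 8.30 at 8 h (median 7.84) and 8.58 to 8.78 at 2 h (median 8.70), without overlap, and changed by -0.76 (SE 0.08, adjusted p = 2.28e-06). The drop was -0.99 under the JAK1/2 inhibitor and -0.29 under the JAK2 inhibitor, which had the highest 8 h value. Tnfrsf23 had 7.38 to 8.02 at 8 h (median 7.81) and 7.79 to 8.26 at 2 h (median 8.07), and changed by -0.29 (SE 0.09, adjusted p = 0.0190). Its ranges overlap and its changes ran from -0.72 under the JAK1 inhibitor to 0.18 under the JAK2 inhibitor, the single inhibitor in which it was higher at 8 h. The call for Tnfrsf23 was lost without the JAK1/2 inhibitor (-0.25) or the TYK2 inhibitor (-0.27).
The other receptors did not pass. Tnfrsf26 differed by 0.00 (95% interval -0.09 to 0.10), Tnfrsf19, which encodes TROY, by -0.03 (-0.16 to 0.10), and Tnfrsf12a, which encodes the TWEAK receptor Fn14, by -0.09 (-0.26 to 0.08).

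Several members lie next to each other in the genome, and not all neighbours moved together. Chromosome 4 carries 9 of the 29 members, 8 of them tested. In the RefSeq gene order, 0 coding genes lie between Tnfrsf4 and Tnfrsf18, which both fell, between Tnfrsf1b and Tnfrsf8, which both fell, and between Tnfsf8, which fell, and Tnfsf15, which was below the percentile. Tnfrsf14 and Tnfrsf25, which rose, lie on the same chromosome, with 39 coding genes between Tnfrsf14 and Tnfrsf4. On chromosome 7, Tnfrsf26, Tnfrsf22 and Tnfrsf23 follow each other with 0 coding genes between. These 3 are close paralogues in the mouse, and signal shared between their probe sets was not tested. Their differences between 8 h and 2 h were -0.76 for Tnfrsf22, -0.29 for Tnfrsf23 and 0.00 for Tnfrsf26.

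Of 11 tested superfamily genes under other symbols, 3 were higher and 4 lower at 8 h by the same test, with a median of 0.07, where 21.4% of all genes were higher and 28.2% lower. The ligand genes Tnf (-1.21, SE 0.06), Fasl (-1.11, SE 0.07), Lta (-0.85, SE 0.07) and Cd40lg (-0.29, SE 0.08) fell, and Ltb (0.42, SE 0.06), the receptor gene Cd27 (0.60, SE 0.07) and Relt (0.47, SE 0.06) rose. Tnf had 8.74 to 9.08 at 8 h and 9.96 to 10.30 at 2 h. The Tnf ligand gene was thus lower at 8 h together with Tnfrsf1b, while Tnfrsf1a was higher. Fas, the receptor of Fas ligand, differed by 0.13 (adjusted p = 0.0548) and did not pass.

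Among 14 tested adaptor and death signalling genes, 3 rose and 7 fell, with a median of -0.14, again beside 21.4% higher and 28.2% lower of all genes. Tradd (0.31), the adaptor of TNFR1, Traf1 (0.30) and Casp8 (0.21) were the 3 that rose. The NF-kB feedback enzyme gene Tnfaip3 (-0.60), the ubiquitin ligase genes Birc3 (-0.59) and Traf6 (-0.46), and Traf2 (-0.30) were among those that fell. Traf1, Traf2 and Traf5 all encode adaptors of costimulatory receptors, and Traf5 differed by -0.01 (limma adjusted p = 0.912).
Of 11 NF-kB kinases, subunits and inhibitors, 1 rose (Ikbkg, 0.20) and 8 fell, with a median of -0.39, beside the same 21.4% and 28.2% of all genes. The largest drops were those of Nfkb2 (-1.26, SE 0.07), whose product is processed on signals of several receptors of this family, and its partner Relb (-1.13, SE 0.07). Nfkb2 had 8.48 to 9.07 at 8 h and 9.88 to 10.12 at 2 h, without overlap. The inhibitor gene Nfkbia (-0.72) and the subunit genes Rel (-0.47) and Rela (-0.39) fell as well. Traf3, Ripk1, Chuk and Nfkb1 had no probe set of their own and were not analysed here. Without the JAK1 inhibitor's 8 h array, all 7, 10 and 9 calls in these 3 lists were kept.

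**Figure D3:**
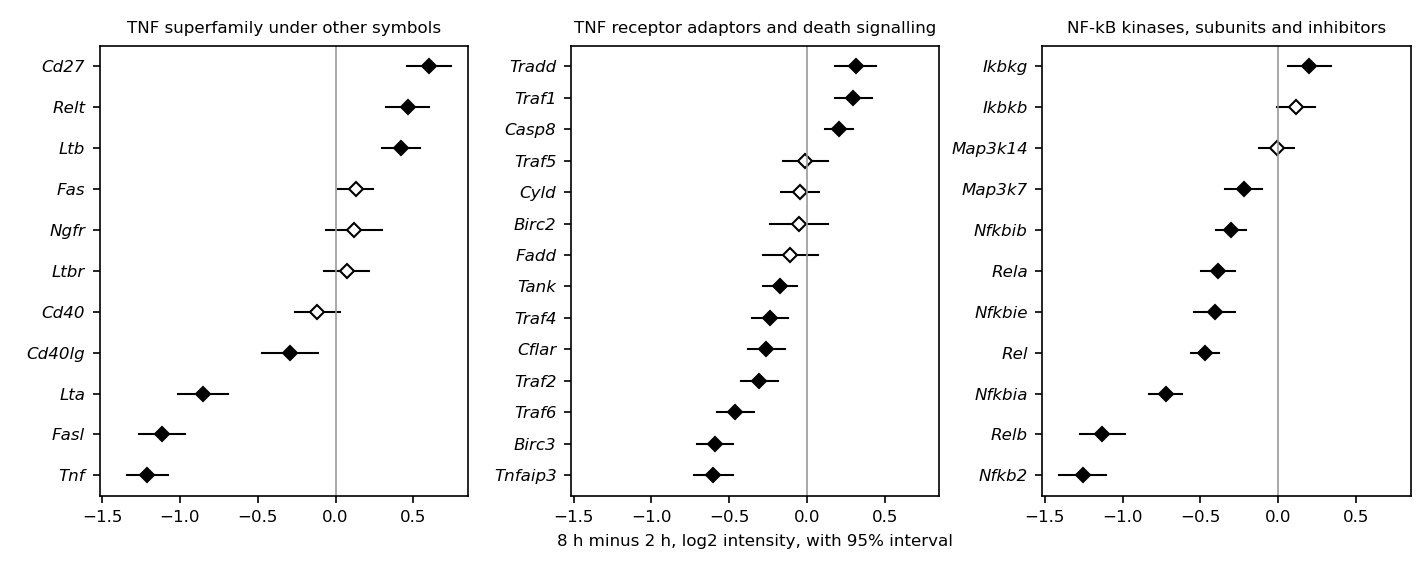
Difference in log2 intensity, 8 h minus 2 h, with its 95% interval, for tested genes of 3 related lists (panels); filled diamonds passed the adjusted threshold and open ones did not. Tnf (-1.21), Fasl (-1.11), Nfkb2 (-1.26) and Relb (-1.13) lie farthest to the left and Cd27 (0.60) farthest to the right.

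Between the inhibitor classes, the gene of TRAIL was the member that passed the test at 2 h. At 2 h, Tnfsf10 had a log2 intensity of 7.53 under the JAK1, 7.92 under the JAK1/2, 7.92 under the PAN and 7.92 under the TYK2 inhibitor. Under the inhibitors naming JAK2 or JAK3 only, it had 8.44 (JAK2), 8.39 (JAK3, IFN.6226) and 8.54 (JAK3, IFN.6228). The classes do not overlap, and within the first class the JAK1 inhibitor lies below 3 nearly equal values. On the linear scale of the files these are intensities of 184.3 to 242.4 in the first class and 336.5 to 372.2 in the other. The mean was 7.82 ± 0.20 (SD, n = 4) in the inhibitors naming JAK1 or TYK2 and 8.46 ± 0.07 (SD, n = 3) in the others, a difference with a 95% interval of -0.85 to -0.42 and a limma adjusted p of 0.00739.
Tnfsf10 was the 1 member of 22 that passed at 2 h, where 0.697% of all genes passed, all of them lower. Without adjustment, 2 members (Tnfsf10 and Tnfrsf26) and 4.11% of all genes had a p under 0.05. With the JAK3 pair averaged to 1 value its adjusted p was 0.0547, without the JAK2 inhibitor 0.0584 and without JAK3 inhibitor IFN.6228 0.0959, at differences of -0.63, -0.65 and -0.59. The promoter of Tnfsf10 printed above holds IRF cores and no ISRE, and their part in this difference was not tested.

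Tnfrsf14, whose promoter holds an ISRE, was the other member without overlap at 2 h. It had 9.53, 9.61, 9.58 and 9.53 under the JAK1, JAK1/2, PAN and TYK2 inhibitors, and 9.62, 9.71 and 9.68 under the JAK2 and both JAK3 inhibitors. The difference was -0.11 (SE 0.06, adjusted p = 0.995), and the classes are separated by less than the spread within either. Groups without overlap occurred in 2 of 22 members and in 5.03% of all genes. All 5 ligands had a negative difference at 2 h, with a median of -0.13, and 10 of the 17 receptors a positive one, with a median of 0.01. The median of all genes was 0.01, and of the ligands only Tnfsf10 had an unadjusted p under 0.05 by limma. Tnfrsf1b and Tnfsf13b, whose promoters also hold an ISRE, had no separate classes at 2 h. Any link between these motifs and the differences between classes was not tested.

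**Figure D4:**
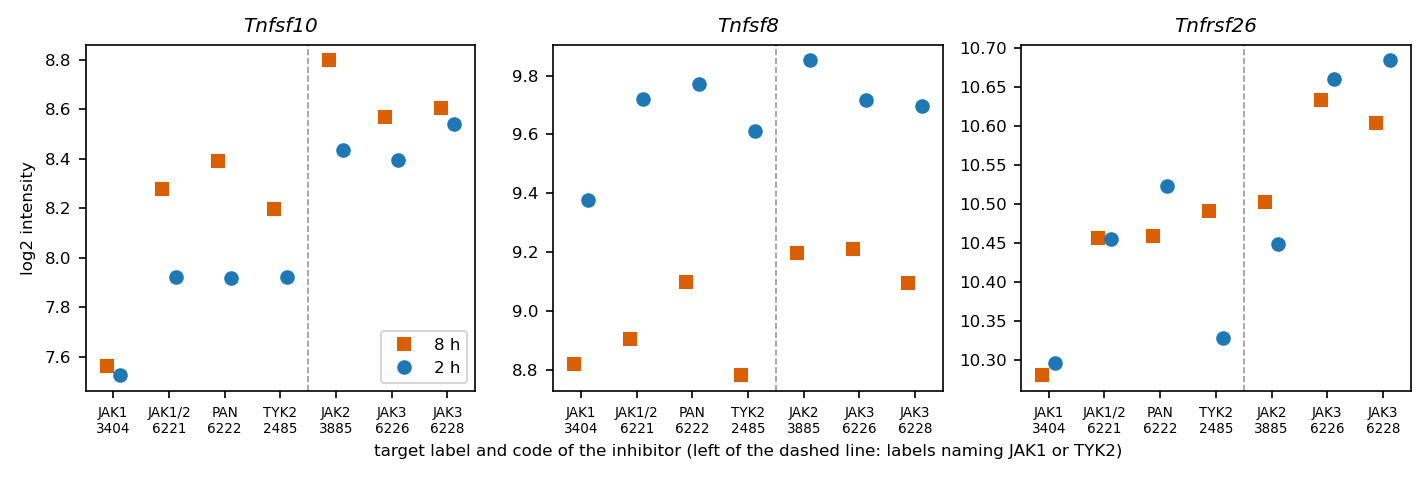
Log2 intensity of Tnfsf10, Tnfsf8 and Tnfrsf26 (panels, each with its own scale) by inhibitor, with squares for 8 h and circles for 2 h, 1 array each; inhibitors left of the dashed line name JAK1 or TYK2. For Tnfsf10 the points left of the line lie below those of the same time to its right, with the JAK1 inhibitor lowest at 7.56 (8 h) and 7.53 (2 h).

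At 8 h no member passed between the classes by limma, and neither did any gene (0%). Without adjustment, 4 members had a p under 0.05, as did 15.6% of all genes. Tnfsf10 again separated the classes, with 7.56, 8.28, 8.39 and 8.20 under the JAK1, JAK1/2, PAN and TYK2 inhibitors, and 8.80, 8.57 and 8.60 under the JAK2 and both JAK3 inhibitors. The difference was -0.55 (95% interval -0.92 to -0.18, adjusted p = 0.308). The interval is wider than at 2 h, and the values within the first class spread from 7.56 to 8.39. Without the JAK1 inhibitor it was -0.37 (95% interval -0.57 to -0.17, adjusted p = 0.309), still without overlap.
In all, 6 of 22 members had classes without overlap at 8 h, where 19.2% of all genes had. Tnfsf10, Tnfrsf23 (-0.38) and Tnfrsf26 (-0.16) lay below the other class in the inhibitors naming JAK1 or TYK2, and Tnfrsf12a (0.35), Tnfrsf13b (0.17) and Tnfrsf19 (0.16) above it, with adjusted p between 0.308 and 0.328. The median difference of all genes at 8 h was -0.08, and that of the members was -0.03. Without the JAK1 inhibitor these 6 still had no overlap, at differences of -0.31 (Tnfrsf23), -0.11 (Tnfrsf26), 0.38 (Tnfrsf12a), 0.14 (Tnfrsf13b) and 0.18 (Tnfrsf19), and so did 4 more members, 10 in all against 21.9% of all genes. No member or gene passed there by limma, and 5 members and 13.2% of all genes had an unadjusted p under 0.05.
For Tnfrsf12a the 8 h values were 7.29, 7.42, 7.28 and 7.47 under the JAK1, JAK1/2, PAN and TYK2 inhibitors, and 6.995, 6.92 and 7.12 under the JAK2 and both JAK3 inhibitors. For Tnfrsf23 they were 7.38, 7.50, 7.81 and 7.67 in the first class and 7.97, 8.02 and 7.91 in the other. In both genes the gap between the classes is smaller than the range within the first class.

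Set between the classes, the change with time passed for 0 members by limma and for 0.102% of all genes. Without adjustment, 2 members had a p under 0.05, against 10.1% of all genes. Changes without overlap were seen in 4 of 22 members and 8.99% of all genes: Tnfrsf12a, Tnfsf14, Tnfrsf19 and Tnfrsf13b, whose change was more positive in the inhibitors naming JAK1 or TYK2 by 0.30, 0.24, 0.16 and 0.15. Without the JAK1 inhibitor these 4 and 3 more (Tnfrsf8, Tnfsf11 and Tnfsf8) had changes without overlap, against 12.5% of all genes. The change of Tnfsf10 was 0.04 to 0.47 in that class and 0.06 to 0.36 in the other.

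At 2 h, the 5 inhibitors with JAK1 or JAK3 in their label were also compared with the pair that lack both (JAK2 and TYK2), since JAK1 and JAK3 serve receptors with the common gamma chain. No member passed by limma, where 0.0425% of all genes did, and 3 members and 8.93% of all genes had an unadjusted p under 0.05. Tnfrsf1a had 8.59, 8.73, 8.48, 8.54 and 8.39 in the first group (JAK1, JAK1/2, PAN, IFN.6226 and IFN.6228), and 8.27 under both the JAK2 and the TYK2 inhibitor. The 5 values lie above the other pair, with a difference of 0.28 (95% interval 0.08 to 0.47, adjusted p = 0.373). For Tnfrsf9 the same comparison gave -0.19 (adjusted p = 0.358). Groups without overlap were found in 6 of 22 members and 15% of all genes.

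Against the other 6 inhibitors, over both times, the JAK1 inhibitor had 3 members that passed, all lower, where 7.77% of all genes passed (6.81% lower and 0.961% higher). Without adjustment, 5 members and 26% of all genes had a p under 0.05. Tnfsf10 averaged 7.54 under the JAK1 inhibitor and 8.33 ± 0.25 under the others (SD, n = 6), a difference of -0.79 (SE 0.09, adjusted p = 2.05e-04). Without the 8 h array that stood apart it was -0.66 (adjusted p = 0.00752).
Tnfsf8 had 8.82 at 8 h and 9.38 at 2 h under the JAK1 inhibitor. Under the JAK1/2, PAN, TYK2, JAK2 and both JAK3 inhibitors it had 8.91, 9.10, 8.78, 9.20, 9.21 and 9.09 at 8 h, and 9.72, 9.77, 9.61, 9.85, 9.72 and 9.70 at 2 h. The JAK1 inhibitor was lowest at 2 h, but at 8 h the TYK2 inhibitor lay slightly lower. The difference of -0.29 (SE 0.08, adjusted p = 0.0421) lost its call in 9 of 16 alternatives. Among these were leaving out the 8 h array (-0.35), the PAN (-0.28), the JAK3 inhibitor IFN.6226 (-0.27) or the JAK3 inhibitor IFN.6228 (-0.29). Median centring, no filter and no variance trend also lost the call. The difference was -0.18 after quantile normalization or cyclic loess, past the threshold in neither.
Tnfrsf26 had 10.28 at 8 h and 10.30 at 2 h under the JAK1 inhibitor. Under the other 6 it ranged between 10.46 and 10.63 at 8 h and between 10.33 and 10.68 at 2 h, so that the JAK1 inhibitor was lowest at both times. The difference of -0.23 (SE 0.06, adjusted p = 0.0436) lost its call in 10 of 16 alternatives, with adjusted p up to 0.223. Among these were leaving out the 8 h array (-0.22), the PAN (-0.24), the TYK2 (-0.25), the JAK3 inhibitor IFN.6226 (-0.21) or the JAK3 inhibitor IFN.6228 (-0.21), quantile normalization (-0.15) and cyclic loess (-0.14). Of the related lists, Cflar, which encodes the caspase-8 inhibitor c-FLIP, was the 1 gene that passed: it averaged 8.60 under the JAK1 inhibitor and 9.06 ± 0.13 under the others (SD, n = 6), a difference of -0.47 (SE 0.08, adjusted p = 0.00342). Without the 8 h array it was -0.37 (SE 0.10, adjusted p = 0.0672) and no longer passed.

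No member passed for the other 6 inhibitors by limma. Of all genes, 0.0085% passed for JAK1/2, 0% for PAN, 0% for TYK2, 0.0765% for JAK2, 0% for JAK3 inhibitor IFN.6226 and 0% for JAK3 inhibitor IFN.6228. Members with an unadjusted p under 0.05 numbered 0, 0, 1, 5, 3 and 3 in that order, against 5.22%, 0.323%, 4.84%, 4.65%, 3.19% and 6.9% of all genes. Under the JAK2 inhibitor these 5 were Tnfsf10 (0.47, adjusted p = 0.0892), Tnfrsf8 (0.30), Tnfrsf9 (0.23), Tnfsf8 (0.21) and Tnfrsf18 (0.20), all positive. A positive difference was found in 16 of 22 members and in 65.3% of all genes, whose median was 0.03, and after quantile normalization in 14 of 22 members and 48.8% of all genes. Of these 5, 4 are members that were lower at 8 h than at 2 h, and the JAK2 inhibitor held the highest 8 h value of Tnfrsf8, Tnfrsf9 and Tnfrsf18. The JAK2 inhibitor also held the highest 2 h value of Tnfrsf8, Tnfrsf18 and Tnfsf8, but not of Tnfrsf9.
Tnfsf10 had a difference of 0.31 under JAK3 inhibitor IFN.6226 (adjusted p = 0.815) and of 0.41 under JAK3 inhibitor IFN.6228 (adjusted p = 0.319). The inhibitors naming JAK1 or TYK2 other than the JAK1 inhibitor gave -0.14 (JAK1/2), -0.08 (PAN) and -0.18 (TYK2). These 7 differences share arrays, since each inhibitor is part of the mean for the others.

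**Figure D5:**
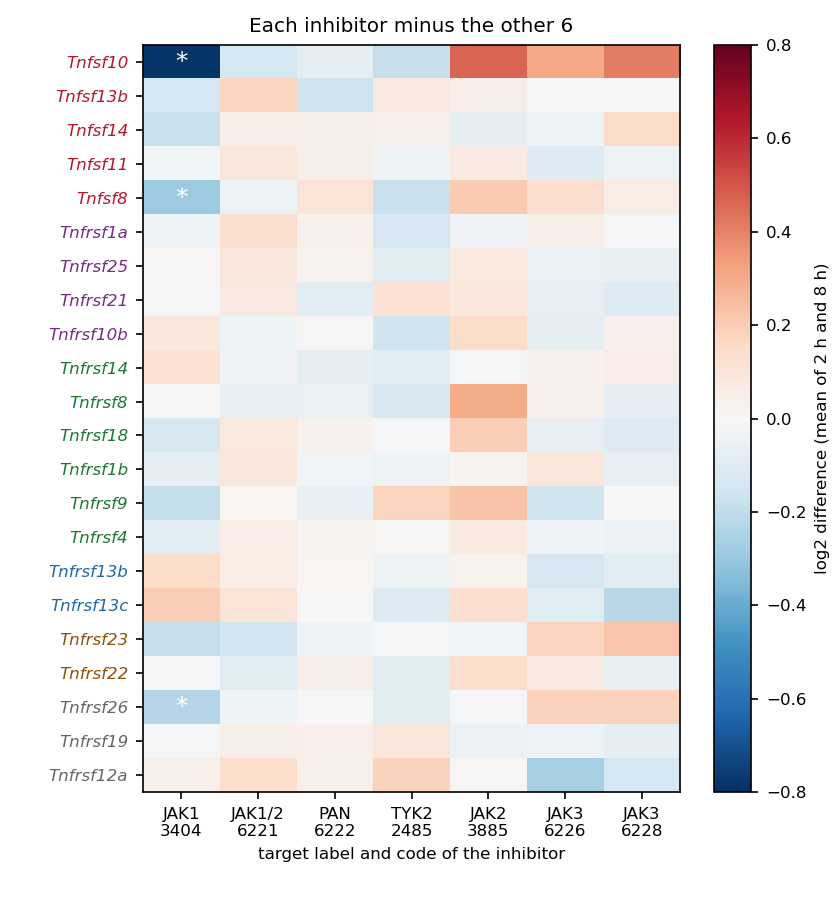
Difference in log2 intensity of each inhibitor (columns) minus the mean of the other 6, over 8 h and 2 h, for the 22 tested members (rows, coloured by role as in the plot of levels); red is higher and blue lower, and stars mark an adjusted p under 0.05. The 3 stars stand in the JAK1 column, at Tnfsf10 (-0.79), Tnfsf8 (-0.29) and Tnfrsf26 (-0.23).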

How the data were processed

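The authors deposited 1 intensity per probe set and array, and per the submitters' processing notes Affymetrix Power Tools and RMA were used, without versions. The deposited intensity values (4.78 to 22879, medians of 109 to 121 per array) were taken to be linear, and their log2 was used. Whether all arrays were normalized together is not given in the sources used here. Of 24922 probe sets, the 21425 with 1 gene symbol were used, 1399 with several and 2098 with none were not, and the brightest probe set stood for its gene. Symbols of the 29 members were checked against RefSeq names (GRCm38.p6), which changed 0.

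Tests used limma 3.58.1 in R 4.3.3 (lmFit, eBayes with trend=TRUE, statmod 1.5.0), with Benjamini-Hochberg adjustment over 11761 genes and a threshold of 0.05. Time and single inhibitors came from 1 additive fit of inhibitor and time, and classes from 1 value per inhibitor. The fits were also run on simulated data in which 200 genes changed, with means and variances taken from these arrays. Figures used Python 3.11.15, numpy 2.4.6, pandas 2.3.3 and matplotlib 3.10.9. Named genes are all members above the percentile, by role, and some genes of the related lists. All tested genes of those lists are shown in the plot of the 3 related lists. More of them are named in the text than was planned. The members and lists were chosen with earlier results of these data known. The number of arrays limits the precision.

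Alternatives were quantile normalization, median centring, an offset of 50, no filter or the 60th percentile, averaging over probe sets, robust moderation, no variance trend, no block for the inhibitor, the JAK3 pair averaged and each inhibitor left out. Added after seeing the data were cyclic loess, fits without the JAK1 inhibitor's 8 h array, and the signs of single inhibitors under other scalings.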

Additional observations from a re-analysis of the deposited data

Results flagged for a closer look

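Values that stood apart from their group were looked for in 66 groups of 4 or 7 values, by the gap to the nearest other value as a share of the range, and 7 were found. Chance alone sets about 1 in 20 such groups apart. Of the 7, 6 came from the JAK1 inhibitor and 5 of these 6 are values of its 8 h array or of the change that uses it, the array that stood apart from the other 8 h arrays. The part of that array in these values was not tested.

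At 2 h, Tnfsf10 had 7.53 under the JAK1 inhibitor, against 7.92 under each of the JAK1/2, PAN and TYK2 inhibitors. At 8 h, Tnfrsf14 had 10.17 under the JAK1 inhibitor and 9.80 to 9.84 under the other 3 of that class, and its change with time was 0.64 under the JAK1 inhibitor and 0.15 to 0.29 under the other 6. Tnfrsf13b had 8.92 at 8 h under the JAK1 inhibitor and 8.80 to 8.81 under the other 3. Tnfrsf26 had 10.28 at 8 h under the JAK1 inhibitor and 10.46 to 10.49 under the other 3. The change of Tnfrsf18 was -0.78 under the JAK1 inhibitor and -0.62 to -0.51 under the other 6. Tnfsf11 had 8.98 at 2 h under the TYK2 inhibitor and 9.13 to 9.16 under the JAK1, JAK1/2 and PAN inhibitors.

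The mean change of Tnfrsf19 was 0.04 in the inhibitors naming JAK1 or TYK2 and -0.12 in the others, a difference of 0.16. It was noted for its opposite signs, although the change was only 0.002 under the JAK1 and 0.0004 under the PAN inhibitor. The largest changes were 0.14 under the JAK1/2 and -0.25 under the JAK2 inhibitor, and the probe set lay just inside the percentile. By limma the difference between the classes had an adjusted p of 0.520.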

How the results depend on the processing

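Counts of called members were recomputed 183 times, and 172 stayed within 1.5 times the reported count. Most comparisons had a reported count of 0, and a count that stayed 0 was taken as within that range. Of 387 recomputed differences of called members, 349 kept direction and call, 38 were no longer past the threshold and 0 reversed. The count for time was 15 to 18 with an inhibitor left out. The calls lost there were those of Tnfrsf10b, Tnfrsf23 and Tnfsf13b, and cyclic loess also lost that of Tnfsf13b (0.16). Without a filter Tnfrsf10b was lost and Tnfsf9 was called. The count at 2 h between classes was 0 with the JAK3 pair averaged and 0 to 1 with an inhibitor left out. For the JAK1 inhibitor it was 1 (Tnfsf10) with median centring, no filter, no variance trend or without its 8 h array, and 1 to 4 with another inhibitor left out. Tnfrsf13c was called higher under the JAK1 inhibitor after quantile normalization and cyclic loess, where Tnfsf8 and Tnfrsf26 were lost. The count for the JAK2 inhibitor was 0 to 1 with another left out, the call being Tnfsf10 without JAK3 inhibitor IFN.6228. The cause was not tested. Dim probe sets were left out by the filter, and no value measures the spread between cultures. By replicate number, no paired analysis was possible because every array carries the number 1. Time was paired by inhibitor instead, and without this block 17 of the 18 calls were kept, all but that of Tnfsf10.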
